A study of Arabidopsis thaliana with 12 samples.

Results

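The comparison described here is the response of wild-type shoot tips of Arabidopsis thaliana, a small flowering plant of the mustard family, to high air humidity. It sets RNA-seq libraries of dissected inflorescence meristems from col0 plants in high humidity against those from col0 plants in low humidity, across all genes of the count table. The members are 6 of the 12 libraries of the series, chosen by the genotype and humidity in their labels, with 3 in high humidity and 3 in low humidity. The col0 genotype is the Columbia wild type, and no transgene, other allele or treatment is stated for either group. The other 6 libraries come from an aquaporin mutant in the same humidities. It is named pip2 or pip2d in the labels and pip2;5 in the design text, with no allele stated. Its libraries enter the gene filter, the scaling and the estimate of spread. They also give the mutant's own response and the test of where the genotypes differ. The humidity in percent, the time spent in it, the age of the plants, the number of plants per library and the time of day of dissection are not given in the sources used here.

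The inflorescence meristem is the dome of dividing cells at the shoot tip that produces flowers, and a dissected tip also carries young flower buds. Humid air slows evaporation from the shoot, and so slows transpiration, the stream of water and minerals drawn up the xylem that also cools the plant. Plants read water status in large part through the hormone abscisic acid (ABA). Its PYR/PYL receptors, once bound, block PP2C phosphatases and so free SnRK2 kinases, which act on bZIP transcription factors that switch on dehydrins and other protective proteins.

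Expression is given in CPM, the reads of a gene as a share of its library's total scaled by TMM, in replicates 1, 2 and 3 in that order. Fold changes are log2, high minus low humidity, with their standard error. A gene is called where its p-value from the quasi-likelihood test of edgeR, adjusted over all tested genes by Benjamini and Hochberg, is below 0.05. Rose and fell are used for called genes. The col0 libraries held 19440154, 21655990 and 28445060 counts in high humidity, against 20611944, 18010889 and 20384128 counts in low humidity. The first principal component of the 6 libraries carried 51.4% of their variance and separated the humidities, while the next carried 19.3% and set replicate 3 of both groups apart from replicates 1 and 2. The table lists no gene at 0 in col0 low replicate 1, whereas 884 to 1278 genes are at 0 in each other library, so genes without a count in that library were not analysed here. The labels do not say whether replicates came from separate batches of plants, and the p-values therefore rest on a spread that may be technical. Same-numbered high and low libraries deviated together, but the main fit leaves this pairing out. A fit with a replicate block, a term for the replicate number, called 7577 genes in col0, against 6614 in the main fit.

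The genotype labels held, as all 6 col0 libraries carried 974 to 1509 counts of PIP2;5 (AT3G54820), against 11 to 25 counts in the pip2 libraries. The meristem genes STM, KNAT1 and WUS were present in every col0 library, which does not show what share of the tissue was meristem. RBCS1A, a nuclear photosynthesis gene, had the highest mean CPM in both groups. STM (AT1G62360), which keeps meristem cells undifferentiated, stood at 49.6, 43.5 and 45.6 CPM in high humidity, against 45.9, 37.2 and 44.1 CPM in low humidity. WUS (AT2G17950), the organizer of the stem cells, stood at 28.4, 31.4 and 30.7 CPM in high humidity, against 23.7, 30.8 and 28.2 CPM in low humidity. The groups overlapped for STM and WUS, and neither was called. CLV3, the peptide gene of the stem cells, is absent from the count table and was not analysed here. RNA of flower organs was present in all libraries. The summed level of 12 tapetum and pollen markers, which include oleosins of the pollen coat, was 5447, 5430.5 and 4276 CPM in high humidity, against 3880.4, 3220.2 and 4215 CPM in low humidity, with 2 members called, both higher, the pollen coat genes GRP17 (AT5G07530) and GRP19 (AT5G07550) (GRP17 alone without col0 high replicate 1 or 2 or col0 low replicate 1 or 2, or with a replicate block). The sum and the median of the list differed in sign. Only 4 of the 12 members had a positive fold change, and the median was -0.32, while GRP17 was the largest part of the sum, at 2726, 2923 and 2252 CPM in high humidity, against 1749, 1554 and 2109.6 CPM in low humidity. No member fell, but 1 did with a replicate block, with DESeq2, without robust shrinkage or in a fit of the col0 libraries alone, and 3 did without col0 low replicate 2. In bulk tissue, fewer cells of a type and less RNA per cell cannot be told apart.

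Of 21897 tested genes 6614 were called between humidities in col0, which is 30.2%. Of these, 3127 rose (14.3% of tested genes) and 3487 fell (15.9%). Counts of list members below are to be read against these shares. Most changes were small. The median size among called genes was 0.40 on the log2 scale, and 65.6% of the called genes changed by less than 0.5. Large changes leaned upward, with 516 genes called at least 2-fold higher (2.36% of tested genes) against 191 at least 2-fold lower (0.872%). The called share grew with expression level, from 8.75% of 1875 genes below 1 CPM to 55.9% of 2110 genes at 100 CPM or more. Of the genes at 100 CPM or more, 825 fell (39.1%) and 354 rose (16.8%), so genes with high counts leaned downward. Leaving out 1 library at a time gave 4766 to 5829 calls, and 3899 of the 6614 calls held without each of the libraries in turn.

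**Figure D1:**
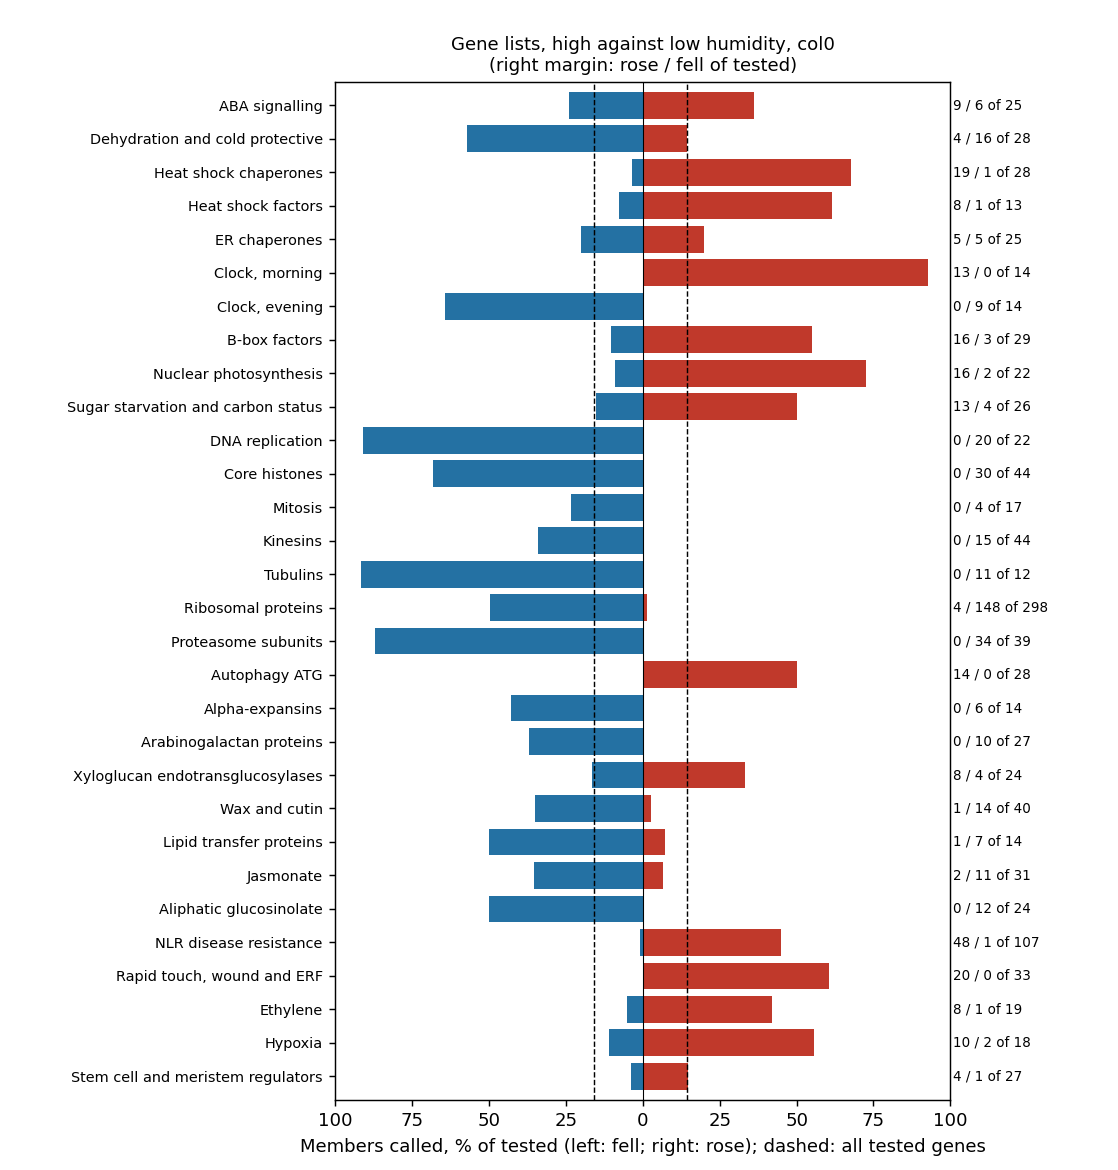
Share of the tested members of 30 gene lists that rose (right, red) or fell (left, blue) in col0, high against low humidity, in percent of tested members, with the numbers called and tested beside each list. The dashed lines mark the shares over all tested genes, 14.3% higher and 15.9% lower. Morning clock genes, heat shock chaperones and photosynthesis genes lie far to the right, and DNA replication, proteasome and tubulin genes far to the left. The core histone, kinesin, tubulin, ribosomal protein and disease resistance groups were defined after values were seen.

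The ABA pathway changed with opposite signs at its ends. Most receptor genes rose, while phosphatase, kinase and protective genes that act after them fell more often than they rose. Of 25 tested ABA signalling genes 9 rose and 6 fell, with a median of 0.16 against 0.00 over all tested genes. PYL4 (AT2G38310) stood at 166, 156 and 146 CPM in high humidity, against 62.3, 57.8 and 60.6 CPM in low humidity (log2 fold change 1.37 ± 0.06, adjusted p = 3.55e-10). PYL5 (AT5G05440) stood at 35.7, 41.7 and 39.4 CPM in high humidity, against 8.99, 7.77 and 8.90 CPM in low humidity (log2 fold change 2.18 ± 0.10, adjusted p = 2.87e-10). Every high-humidity library lay above every low-humidity library for both receptors. The groups stood apart in this way, in one direction or the other, for 44.8% of all tested genes. They did so for 6444 of the 6614 called genes, so a lack of overlap adds little to a call, here and for the genes below. PYL6 (AT2G40330) and PYR1 (AT4G17870) rose by 1.45 ± 0.11 and 1.04 ± 0.07, and the smaller rises of PYL1 (0.41 ± 0.07), PYL8 and PYL9 lay between 0.37 and 0.57. Of the 9 tested receptors 7 rose. The other rises of the list were HAB1 (AT1G72770) at 0.39 ± 0.06, a phosphatase of the core pathway, and the bZIP factor ABF4 (AT3G19290) at 0.35 ± 0.08.

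The 6 members that fell act after the receptors. HAI2 (AT1G07430), a PP2C phosphatase strongly induced by ABA, stood at 5.11, 5.07 and 4.87 CPM in high humidity, against 8.65, 9.76 and 10.2 CPM in low humidity (log2 fold change -0.93 ± 0.14, adjusted p = 0.000123), with no overlap between the groups. PP2CA (AT3G11410), another such phosphatase, fell by 0.38 ± 0.07 on the log2 scale. The kinase genes OST1 (AT4G33950) and SNRK2.2 (AT3G50500) changed by -0.33 ± 0.08 and -0.32 ± 0.06, and the bZIP gene ABI5 (AT2G36270) by -0.27 ± 0.07. The phosphatase gene ABI2 (-0.36 ± 0.10) lost its call without col0 high replicate 1 (adjusted p = 0.0525). Of 13 tested genes of ABA turnover 1 rose (2 in a fit of the col0 libraries alone) and 3 fell. Over all tested genes 14.3% rose and 15.9% fell. CYP707A3 (AT5G45340), an enzyme that inactivates ABA, stood at 18.7, 26.5 and 22.3 CPM in high humidity, against 12.8, 11.5 and 13.3 CPM in low humidity (0.84 ± 0.14). Its relative CYP707A1 (AT4G19230) fell (-0.40 ± 0.10), as did the synthesis enzyme ABA2 (AT1G52340) (-0.60 ± 0.13).

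Protective proteins made under dehydration and cold fell widely. Of 28 tested members 16 fell and 4 rose, with a median of -0.60. LTI30 (AT3G50970), a dehydrin, stood at 0.261, 0.320 and 0.138 CPM in high humidity, against 4.64, 6.79 and 5.35 CPM in low humidity (log2 fold change -4.56 ± 0.32, adjusted p = 3.93e-08). COR15A (AT2G42540), which encodes a protective protein of the chloroplast stroma, stood at 155, 148 and 141 CPM in high humidity, against 422, 488 and 462 CPM in low humidity (log2 fold change -1.63 ± 0.07, adjusted p = 2.87e-10). RD29A (AT5G52310), a classic target of drought and cold signalling, stood at 22.9, 20.1 and 24.1 CPM in high humidity, against 85.2, 97.01 and 88.8 CPM in low humidity (log2 fold change -2.01 ± 0.21, adjusted p = 0.000114). The groups stood well apart for all 3 genes. The dehydrin RAB18 (AT5G66400) (-1.74 ± 0.17) and COR15B (AT2G42530) (-2.49 ± 0.11) moved the same way. Among the members that rose was ERD5 (AT3G30775), proline dehydrogenase, which breaks down the protective amino acid proline. It stood at 377, 366 and 340.0 CPM in high humidity, against 239.7, 255 and 237 CPM in low humidity (0.57 ± 0.13).

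**Figure D2:**
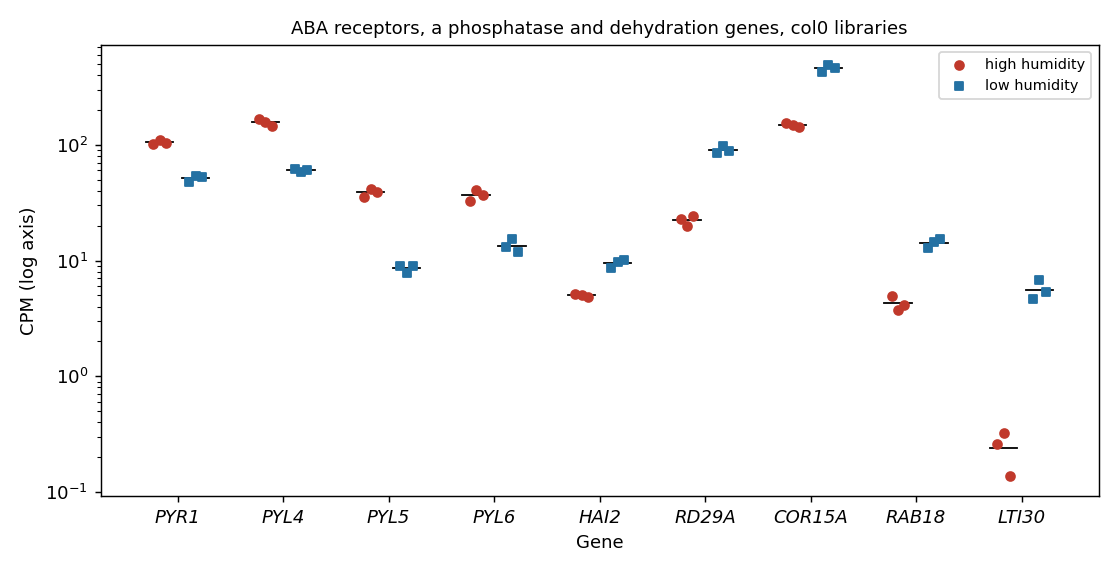
CPM on a log axis of 4 ABA receptor genes (PYR1, PYL4, PYL5, PYL6), the phosphatase HAI2 and 4 dehydration genes (RD29A, COR15A, RAB18, LTI30) in each col0 library, high humidity (red, left) beside low humidity (blue, right), with bars at the group means. The 3 libraries of a group lie close together, the receptors are higher in high humidity and the other genes lower, by up to the -4.56 log2 of LTI30.

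Heat shock genes rose in high humidity. Of 28 tested chaperones 19 rose and 1 fell, with a median of 0.66; 3 fell with a replicate block or without col0 high replicate 1. HSP70 (AT3G12580), a stress-induced chaperone of the cytosol, stood at 507, 412 and 417 CPM in high humidity, against 70.9, 58.5 and 77.1 CPM in low humidity (log2 fold change 2.69 ± 0.16, adjusted p = 1.6e-06). HOP3 (AT4G12400), which links HSP70 to HSP90, stood at 92.4, 78.2 and 76.3 CPM in high humidity, against 16.3, 14.3 and 16.4 CPM in low humidity (log2 fold change 2.39 ± 0.10, adjusted p = 3.55e-10). ROF2 (AT5G48570), an immunophilin of the heat response, stood at 156, 145 and 134 CPM in high humidity, against 38.7, 33.9 and 41.5 CPM in low humidity (log2 fold change 1.92 ± 0.09, adjusted p = 4.11e-09). In all 3 the high-humidity replicate 1 was the highest library, and no low-humidity library came near the high ones. The small chaperone HSP17.6A (AT5G12030), near 0 in low humidity, rose too and stood at 3.29, 2.88 and 3.45 CPM in high humidity, against 0.391, 0.171 and 0.150 CPM in low humidity (3.70 ± 0.38). Reads of small heat shock genes may be shared among close copies.

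The regulators rose more often than they fell. Of 13 tested heat shock factors and partners 8 rose and 1 fell (14.3% and 15.9% over all tested genes). Leaving out 1 library gave 6 to 7 rises and 0 to 1 falls. HSFA2 (AT2G26150), which sustains heat-induced transcription, stood at 19.7, 16.1 and 14.9 CPM in high humidity, against 6.45, 6.39 and 6.65 CPM in low humidity (log2 fold change 1.38 ± 0.15, adjusted p = 3.32e-06). MBF1C (AT3G24500), a coactivator of thermotolerance, stood at 69.1, 52.8 and 39.3 CPM in high humidity, against 15.9, 16.4 and 16.6 CPM in low humidity (log2 fold change 1.71 ± 0.22, adjusted p = 0.000321). Chaperones of the endoplasmic reticulum did not move as a block. Of 25 tested members 5 rose and 5 fell (14.3% and 15.9% over all tested genes), with a median of -0.08. These counts were unsteady: without col0 high replicate 1 or col0 low replicate 2 there were 2 rises, without col0 high replicate 2 or with limma on TPM there were 3 rises, without col0 high replicate 2 or col0 low replicate 3 there were 3 falls, and a replicate block gave 8 falls. The disulfide isomerases PDIL1-1 (AT1G21750) (-0.36 ± 0.08) and PDIL2-1 (AT2G47470) (-0.29 ± 0.07) were among those that fell in every fit without 1 library.

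Genes of the circadian clock separated by phase. The clock is a loop in which morning factors such as LHY and CCA1 and evening factors repress each other in turn. Of 14 tested morning genes 13 rose (median 0.90), while of 14 tested evening genes 9 fell (median -0.34). LHY (AT1G01060) stood at 82.8, 81.97 and 76.04 CPM in high humidity, against 24.1, 27.4 and 27.6 CPM in low humidity (log2 fold change 1.61 ± 0.07, adjusted p = 3.55e-10). LNK2 (AT3G54500), a coactivator that works with the morning factors, stood at 559, 631 and 622 CPM in high humidity, against 226, 255 and 231 CPM in low humidity (log2 fold change 1.35 ± 0.08, adjusted p = 8.56e-09). RVE1 (AT5G17300), a clock output factor that promotes auxin synthesis, stood at 26.5, 32.9 and 23.5 CPM in high humidity, against 7.33, 8.74 and 7.9997 CPM in low humidity (log2 fold change 1.78 ± 0.13, adjusted p = 9.78e-08). None of these groups overlapped. On the evening side PRR5 (AT5G24470), a repressor of the morning genes, stood at 5.74, 6.76 and 6.52 CPM in high humidity, against 12.5, 14.7 and 11.2 CPM in low humidity (log2 fold change -1.01 ± 0.16, adjusted p = 0.00022). GRP7 (AT2G21660), an RNA-binding protein of a clock output loop, stood at 483, 478 and 471 CPM in high humidity, against 716, 887 and 878 CPM in low humidity (log2 fold change -0.79 ± 0.08, adjusted p = 3.31e-06). The time of dissection is not given, so clock phase and humidity cannot be told apart in these libraries.

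B-box and photosynthesis genes rose more often than they fell. Of 29 tested B-box zinc finger genes, many of them under light and clock control, 16 rose and 3 fell. COL2 (AT3G02380), of the CONSTANS group, stood at 34.7, 36.6 and 37.6 CPM in high humidity, against 14.8, 15.8 and 16.999 CPM in low humidity (log2 fold change 1.19 ± 0.10, adjusted p = 1.9e-07). HYH (AT3G17609), a bZIP factor of light-driven development, rose by 1.23 ± 0.17. Of 22 tested nuclear photosynthesis genes 16 rose and 2 fell, with a summed level of 36393, 34833 and 35538 CPM in high humidity, against 28562, 31647 and 31021 CPM in low humidity. LHCB1.4 (AT2G34430), a light-harvesting protein with near-identical copies that may share reads, stood at 117, 109 and 123 CPM in high humidity, against 20.1, 20.3 and 26.9 CPM in low humidity (log2 fold change 2.37 ± 0.20, adjusted p = 3.92e-05). LHCB4.3 (AT2G40100) went the other way (-0.53 ± 0.07). The list marks green tissue, and how far the share of green cells differed between the groups was not tested.

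Genes of sugar starvation and carbon status rose in 13 of 26 cases and fell in 4, with a median of 0.46. SEN1 (AT4G35770), a marker of darkness and ageing, stood at 26.6, 33.9 and 34.2 CPM in high humidity, against 1.86, 0.799 and 2.05 CPM in low humidity (log2 fold change 4.30 ± 0.29, adjusted p = 3.2e-06). BT5 (AT4G37610), a BTB scaffold protein, stood at 29.9, 36.96 and 34.97 CPM in high humidity, against 5.13, 5.02 and 4.50 CPM in low humidity (log2 fold change 2.80 ± 0.19, adjusted p = 7.19e-07). DIN10 (AT5G20250), a dark-induced gene of the raffinose synthase family, stood at 235, 233 and 221 CPM in high humidity, against 71.6, 95.5 and 69.5 CPM in low humidity (log2 fold change 1.54 ± 0.22, adjusted p = 0.00102). The low-energy factors BZIP1 (AT5G49450) (1.37 ± 0.20) and BZIP63 (AT5G28770) (1.20 ± 0.12) rose with them. In SEN1 and BT5 the low-humidity libraries lay far below all high ones. GPT2 (AT1G61800), the plastid sugar-phosphate carrier induced by high sugar, fell and stood at 1.15, 1.33 and 1.28 CPM in high humidity, against 9.63, 8.45 and 10.3 CPM in low humidity (log2 fold change -2.91 ± 0.20, adjusted p = 2.72e-08).

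Among the falls with the smallest adjusted p were 3 genes of starch breakdown. PHS2 (AT3G46970), a cytosolic glucan phosphorylase, stood at 105, 109 and 115 CPM in high humidity, against 226, 217 and 209.7 CPM in low humidity (log2 fold change -0.99 ± 0.06, adjusted p = 1.95e-08). The starch phosphatase SEX4 (AT3G52180) (-0.87 ± 0.06) and the debranching enzyme ISA3 (AT4G09020) (-0.77 ± 0.06) fell as well. Of 30 tested sugar transporters 7 rose and 2 fell, while 14.3% of all tested genes rose and 15.9% fell. Leaving out 1 library gave 5 to 8 rises and 0 to 2 falls. SWEET10 (AT5G50790), a sucrose exporter of the flowering shoot tip, stood at 411, 358 and 374 CPM in high humidity, against 138, 122 and 132 CPM in low humidity (log2 fold change 1.54 ± 0.08, adjusted p = 3.32e-09), and SWEET11 (AT3G48740), which loads the phloem in leaves, rose by 0.94 ± 0.07. The monosaccharide importer STP1 (AT1G11260) rose by 0.95 ± 0.08. The phloem markers SUC2, APL, SEOA, SEOB and CALS7 were not called, but APL was called higher with a replicate block or without col0 high replicate 2. The remaining marker of that list, SULTR2;2 (AT1G77990), rose by 0.76 ± 0.12.

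Genes of the machinery that copies DNA and builds and degrades protein fell together, by small amounts. The replication genes are switched on as cells enter S phase. Of 22 tested replication genes 20 fell, with a median of -0.54. PCNA1 (AT1G07370), the sliding clamp of DNA polymerase, stood at 23.6, 18.96 and 24.02 CPM in high humidity, against 44.6, 39.1 and 40.998 CPM in low humidity (log2 fold change -0.90 ± 0.11, adjusted p = 1.41e-05). TSO2 (AT3G27060), a subunit of ribonucleotide reductase, stood at 88.02, 67.5 and 75.1 CPM in high humidity, against 140.4, 120.4 and 142 CPM in low humidity (log2 fold change -0.81 ± 0.11, adjusted p = 0.00011). CDT1A (AT2G31270), which licenses replication origins, stood at 24.5, 20.7 and 24.3 CPM in high humidity, against 44.02, 39.4 and 42.1 CPM in low humidity (log2 fold change -0.85 ± 0.09, adjusted p = 3.44e-06). No library of one group reached into the other for these genes. Core histones, which package the new DNA, fell in 30 of 44 cases (median -0.50). The core histone group, and the kinesin, tubulin and ribosomal protein groups below, were defined by annotated product after values were seen. HTB1 (AT1G07790), an H2B gene, stood at 76.6, 67.4 and 71.1 CPM in high humidity, against 132, 117 and 138 CPM in low humidity (log2 fold change -0.85 ± 0.09, adjusted p = 3.78e-06), and HTA10 (AT1G51060), an H2A gene, changed by -0.68 ± 0.06. Histone genes have near-identical copies, so reads may be split among them.

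Mitosis genes gave fewer calls. Of 17 tested mitosis genes 4 fell (median -0.18), with 2 falls without col0 high replicate 2 and 7 without col0 low replicate 2 or with a replicate block. Over all tested genes 15.9% fell. CYCB1;1 (AT4G37490), the cyclin of the G2 to M step, changed by -0.44 ± 0.12, and its kinase partner CDKB1;1 (AT3G54180) by -0.58 ± 0.13. Kinesin motors fell in 15 of 44 cases, in 5 without col0 high replicate 2 and in 9 with limma on TPM. Tubulins fell in 11 of 12 cases (median -0.44). TUA5 (AT5G19780) stood at 288, 257 and 281 CPM in high humidity, against 427, 427 and 430.3 CPM in low humidity (log2 fold change -0.64 ± 0.06, adjusted p = 5.92e-07), with no overlap. Of 10 D-type cyclins, which respond to hormones and sugar, 1 was called, CYCD3;2 (AT5G67260), which rose (0.41 ± 0.05).

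Protein synthesis and turnover followed. Ribosomal protein genes fell in 148 of 298 cases and rose in 4 (median -0.21), and their summed level was 44183, 42541 and 43167 CPM in high humidity, against 49127, 51944 and 51784 CPM in low humidity. Genes of the proteasome, the protease that degrades ubiquitin-tagged proteins, fell in 34 of 39 cases (median -0.32). The ring subunit PBG1 (AT1G56450) stood at 96.9, 89.3 and 92.6 CPM in high humidity, against 133, 133 and 140.1 CPM in low humidity (log2 fold change -0.54 ± 0.06, adjusted p = 2.5e-06), and PAD1 (AT3G51260) changed by -0.52 ± 0.06. Autophagy, the other main route of breakdown, which encloses cell contents in membranes, showed the opposite sign. Of 28 tested ATG genes 14 rose (median 0.24), with 8 rises without col0 high replicate 2 and 9 without col0 low replicate 1 or 3. ATG8E (AT2G45170), a ubiquitin-like protein of the autophagosome membrane, stood at 45.7, 48.5 and 43.7 CPM in high humidity, against 17.1, 24.2 and 18.2 CPM in low humidity (log2 fold change 1.22 ± 0.12, adjusted p = 7.14e-06). Its relatives ATG8B (AT4G04620) and ATG8F (AT4G16520) rose by 0.54 ± 0.06 and 0.54 ± 0.07. ATG8E was higher in every high-humidity library, by more than its spread within either group. Of all tested genes at 100 CPM or more, 39.1% fell.

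**Figure D3:**
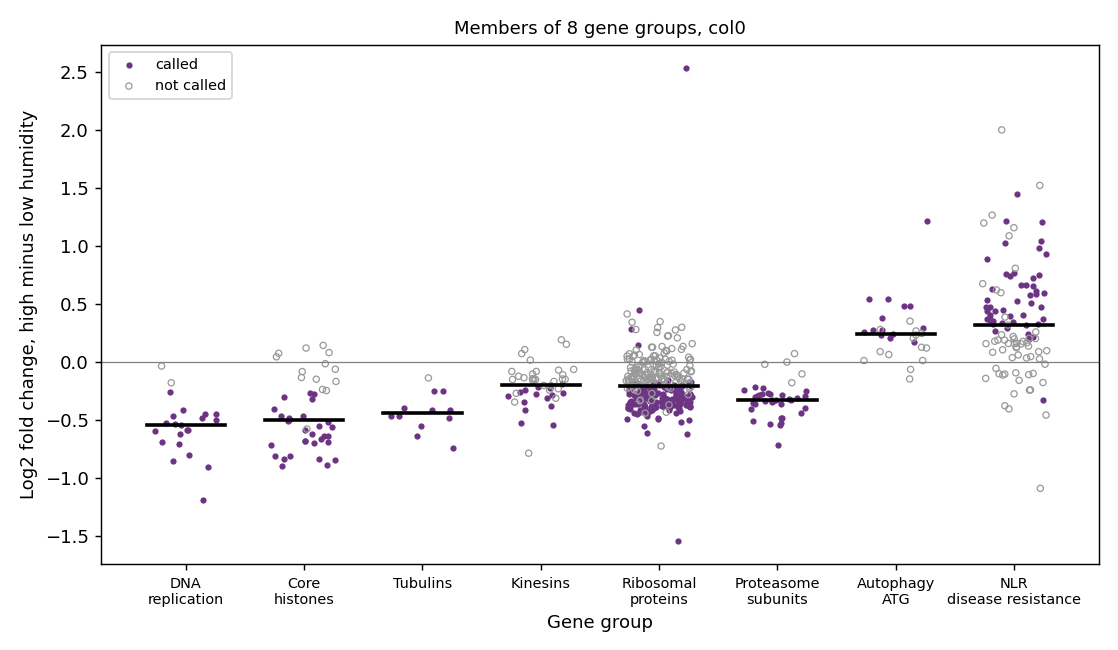
Log2 fold change, high minus low humidity in col0, of every tested member of 8 gene groups, from DNA replication genes to disease resistance genes, with called genes filled and others open; black bars mark the medians and the grey line marks no change. Replication, histone, tubulin, proteasome and ribosomal genes sit mostly below 0, and autophagy and disease resistance genes mostly above. The core histone, tubulin, kinesin, ribosomal and disease resistance groups were defined after values were seen.

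Cellulose synthases changed by wall type. Of 10 tested forms 5 fell, among them CESA1, CESA3 and CESA6 of the primary wall, and 3 rose, all of the secondary wall. CESA1 (AT4G32410) stood at 307, 285 and 294 CPM in high humidity, against 426, 445 and 404 CPM in low humidity (log2 fold change -0.53 ± 0.06, adjusted p = 1.45e-05), and CESA3 (AT5G05170), CESA5 (AT5G09870) and CESA6 (AT5G64740) changed by -0.48 ± 0.06, -0.42 ± 0.05 and -0.47 ± 0.06. CESA4 (AT5G44030), of the xylem, stood at 97.4, 110.2 and 95.4 CPM in high humidity, against 76.7, 71.4 and 79.6 CPM in low humidity (log2 fold change 0.41 ± 0.10, adjusted p = 0.00526), and CESA8 (AT4G18780) changed by 0.42 ± 0.08. CESA7 (0.31 ± 0.09) lost its call without col0 low replicate 1 (adjusted p = 0.0527) or col0 low replicate 2 (adjusted p = 0.0582). The xylem and secondary wall markers rose in 5 of 13 cases (3 without col0 high replicate 1 and 2 without col0 low replicate 2), with a summed level of 605, 632 and 512 CPM in high humidity, against 486, 446 and 508 CPM in low humidity. That list includes CESA4, CESA7 and CESA8, so 3 of its 5 rises are those given above. How far the amount of xylem in the tips differed was not tested.

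Alpha-expansins, which loosen walls for growth, fell in 6 of 14 tested cases. EXPA10 (AT1G26770) stood at 25.2, 25.1 and 25.4 CPM in high humidity, against 44.02, 58.1 and 48.8 CPM in low humidity (log2 fold change -0.99 ± 0.11, adjusted p = 6.26e-06), and EXPA15 (AT2G03090) and EXPA5 (AT3G29030) changed by -0.72 ± 0.11 and -0.82 ± 0.12. Arabinogalactan proteins, sugar-rich proteins of the cell surface, fell in 10 of 27 cases. AGP15 (AT5G11740) stood at 368, 409 and 415 CPM in high humidity, against 667, 718 and 692 CPM in low humidity (log2 fold change -0.80 ± 0.06, adjusted p = 1.34e-07), and AGP9 (AT2G14890) changed by -0.60 ± 0.07. Xyloglucan endotransglucosylases, which cut and rejoin wall glucans, were mixed, with 8 rises (4 without col0 high replicate 3) and 4 falls of 24. XTH9 (AT4G03210) stood at 1380.3, 1416 and 1441 CPM in high humidity, against 1841, 1834 and 1902 CPM in low humidity (log2 fold change -0.40 ± 0.07, adjusted p = 0.000595). XTH15 (AT4G14130) went the other way and stood at 93.2, 98.6 and 96.8 CPM in high humidity, against 54.7, 44.8 and 58.5 CPM in low humidity (log2 fold change 0.87 ± 0.08, adjusted p = 6.41e-07). The XTH9 and XTH15 libraries were apart in opposite directions. Cellulose synthase-like genes, which include makers of mannan and xyloglucan backbones, fell in 12 of 27 cases and rose in 6, with CSLA01 (AT4G16590) at 259, 244 and 219 CPM in high humidity, against 454, 532 and 480.3 CPM in low humidity (-1.02 ± 0.14).

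Surface genes that changed mostly fell. The cuticle is the wax and cutin layer that limits water loss. Of 40 tested wax and cutin genes 14 fell (median -0.15), with 8 falls without col0 high replicate 2 or col0 low replicate 2. CER4 (AT4G33790), the reductase that makes wax alcohols, stood at 70.6, 67.8 and 68.9 CPM in high humidity, against 117, 138 and 119 CPM in low humidity (log2 fold change -0.85 ± 0.08, adjusted p = 1.09e-06). MAH1 (AT1G57750), a hydroxylase of wax alkanes, stood at 216, 172 and 186 CPM in high humidity, against 283, 291 and 301 CPM in low humidity (log2 fold change -0.61 ± 0.10, adjusted p = 0.000507). Both kept the groups apart. Lipid transfer proteins, small secreted proteins that bind lipids, fell in 7 of 14 cases. LTP3 (AT5G59320) stood at 296, 266 and 233 CPM in high humidity, against 536, 592 and 550.5 CPM in low humidity (log2 fold change -1.08 ± 0.13, adjusted p = 8.01e-05) and its neighbour LTP4 (AT5G59310) changed by -1.24 ± 0.12, while LTP5 (AT3G51600) rose and stood at 159.6, 195 and 182 CPM in high humidity, against 75.1, 95.2 and 97.5 CPM in low humidity. The protodermis markers ATML1, PDF1 and PDF2 were not called, but PDF2 was called lower with a replicate block or without col0 high replicate 3. Their list had a summed level of 1161, 1134 and 1251 CPM in high humidity, against 1285, 1188 and 1301 CPM in low humidity, with overlap between the groups. Stomatal lineage markers rose in 5 of 12 cases (2 without col0 high replicate 2 or 3 or col0 low replicate 1, and 3 without col0 high replicate 1 or col0 low replicate 2). One was TMM (AT1G80080), a receptor-like protein of the lineage, at 25.04, 21.98 and 29.1 CPM in high humidity, against 20.6, 17.1 and 18.7 CPM in low humidity (0.43 ± 0.11). Flavonoid and phenylpropanoid genes fell in 9 of 25 cases and rose in 4, with the hydroxylase TT7 (AT5G07990) at 118, 111 and 105 CPM in high humidity, against 208, 249 and 221 CPM in low humidity (-1.02 ± 0.10) and the repressor MYBL2 (AT1G71030) at 30.5, 41.9 and 36.8 CPM in high humidity, against 9.77, 13.4 and 11.3 CPM in low humidity (1.67 ± 0.18).

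Defence genes split by type. Jasmonate is the wound hormone, and its synthesis and response genes fell in 11 of 31 cases and rose in 2 (1 rise without col0 high replicate 3 or col0 low replicate 1). LOX2 (AT3G45140), the lipoxygenase at the entry of the pathway, stood at 649, 575 and 598 CPM in high humidity, against 1367, 1463 and 1426 CPM in low humidity (log2 fold change -1.22 ± 0.10, adjusted p = 1.22e-07). OPR3 (AT2G06050), a later enzyme, stood at 45.8, 44.1 and 39.8 CPM in high humidity, against 69.7, 69.5 and 74.4 CPM in low humidity (log2 fold change -0.72 ± 0.07, adjusted p = 6.56e-07). JAZ10 (AT5G13220), a repressor that jasmonate induces, stood at 15.1, 17.5 and 11.9 CPM in high humidity, against 30.7, 36.4 and 26.8 CPM in low humidity (log2 fold change -1.08 ± 0.16, adjusted p = 0.000317). All 3 were lower in each high-humidity library than in any low-humidity library. Aliphatic glucosinolate genes, which make methionine-derived mustard oil precursors, fell in 12 of 24 cases (median -0.48), with 7 falls without col0 high replicate 2 or 3. IPMI1 (AT3G58990), of the chain-elongation step, stood at 2.03, 1.74 and 3.24 CPM in high humidity, against 5.77, 5.94 and 5.90 CPM in low humidity (log2 fold change -1.30 ± 0.21, adjusted p = 0.000177). Indole glucosinolate and camalexin genes, built from tryptophan, gave 6 rises and 5 falls of 19 (3 rises without col0 low replicate 2). PEN3 (AT1G59870), an exporter of defence compounds, stood at 74.6, 115 and 77.9 CPM in high humidity, against 32.8, 37.97 and 35.7 CPM in low humidity (log2 fold change 1.33 ± 0.20, adjusted p = 0.00127), while the methyltransferase IGMT5 (AT1G76790) fell (-1.89 ± 0.25).

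Immune receptor genes leaned upward. Of 107 tested genes annotated as NBS-LRR disease resistance proteins, the intracellular sensors of pathogens, 48 rose and 1 fell, with a median of 0.32. The group was defined by annotated product after values were seen. The single fall was lost without any one of the libraries other than col0 low replicate 3, and a replicate block gave 2 falls. AT5G46450, annotated as a TIR-NBS-LRR protein, stood at 19.9, 23.5 and 23.7 CPM in high humidity, against 9.82, 11.8 and 11.3 CPM in low humidity (log2 fold change 1.03 ± 0.13, adjusted p = 2.01e-05). AT5G46490 rose by 1.21 ± 0.15 and AT5G41740 by 1.45 ± 0.21. Many of these genes lie in clusters of similar copies, so reads may be shared. THI2.2 (AT5G36910), a small antimicrobial thionin, stood at 29.5, 24.5 and 28.3 CPM in high humidity, against 2.59, 3.31 and 2.85 CPM in low humidity (log2 fold change 3.24 ± 0.17, adjusted p = 3.21e-09). PR4 (AT3G04720), a chitin-binding defence protein, stood at 1.57, 2.97 and 1.97 CPM in high humidity, against 0.0977, 0.400 and 0.150 CPM in low humidity (log2 fold change 3.34 ± 0.44, adjusted p = 3.1e-05).

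Rapid touch, wound and ERF genes, which respond within minutes to handling, rose in 20 of 33 cases (median 1.01). Leaving out 1 library gave 14 to 24 rises, with 14 without col0 high replicate 2 or 3. They were uneven within high humidity. Their summed level was 344, 613 and 635 CPM in high humidity, against 265, 275 and 266 CPM in low humidity, so high-humidity replicate 1 lay much nearer the low-humidity libraries than replicates 2 and 3 did. ERF104 (AT5G61600), an ethylene response factor, stood at 6.99, 22.2 and 28.2 CPM in high humidity, against 1.56, 1.14 and 1.15 CPM in low humidity (log2 fold change 3.89 ± 0.79, adjusted p = 0.00655). TCH3 (AT2G41100), a calmodulin-like touch gene, stood at 25.98, 60.9 and 34.5 CPM in high humidity, against 5.42, 4.28 and 3.80 CPM in low humidity (log2 fold change 3.16 ± 0.53, adjusted p = 0.00235). ZAT10 (AT1G27730), a zinc finger repressor, stood at 2.50, 9.55 and 8.59 CPM in high humidity, against 0.928, 0.856 and 0.450 CPM in low humidity (log2 fold change 3.21 ± 0.62, adjusted p = 0.00341). Even so the groups did not overlap for these genes, and their calls held without each library. WRKY33 (AT2G38470), a regulator of defence, stood at 4.49, 12.5 and 10.01 CPM in high humidity, against 2.88, 2.23 and 1.55 CPM in low humidity (log2 fold change 2.02 ± 0.44, adjusted p = 0.00622). WRKY factors as a family rose in 10 of 47 cases and fell in 1, while 14.3% of all tested genes rose and 15.9% fell. There were 4 rises without col0 high replicate 2, and 6 without col0 high replicate 3 or col0 low replicate 2. Leaving out 1 library gave 1 to 3 falls. The labels give nothing on handling at dissection, and its part in these values was not tested.

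**Figure D4:**
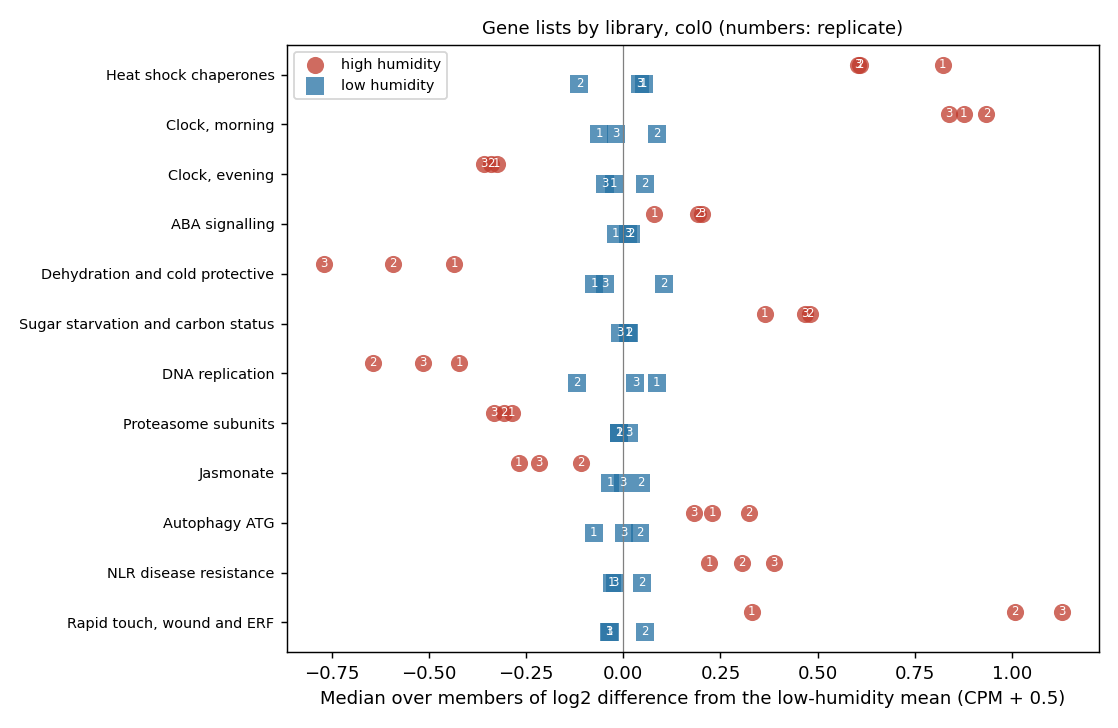
Median over the tested members of 12 gene lists of the log2 difference from the low-humidity mean (CPM plus 0.5), in each of the 6 col0 libraries, with high humidity in red and low humidity in blue and the replicate number inside each point. In all 12 lists the high-humidity points lie apart from the low-humidity points, and the touch list has high-humidity replicate 1 at 0.33 and replicates 2 and 3 at 1.01 and 1.13.

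Genes of ethylene and low oxygen rose more often than they fell. Ethylene is a gas whose receptors ETR2 and ERS2 repress signalling until they bind it. Of 19 tested ethylene genes 8 rose and 1 fell (0 without col0 high replicate 2). ETR2 (AT3G23150) stood at 15.9, 15.2 and 18.98 CPM in high humidity, against 8.01, 8.79 and 7.90 CPM in low humidity (log2 fold change 1.02 ± 0.14, adjusted p = 4.51e-05). ARGOS (AT3G59900), a membrane protein that dampens ethylene sensitivity, rose by 1.96 ± 0.29 and its relative ARL (AT2G44080) by 2.57 ± 0.22. Of 18 tested hypoxia genes 10 rose and 2 fell (1 without col0 high replicate 1 or col0 low replicate 2). RAP2.3 (AT3G16770), a group VII ERF whose stability depends on oxygen, stood at 87.2, 82.6 and 85.02 CPM in high humidity, against 39.6, 41.3 and 42.6 CPM in low humidity (log2 fold change 1.04 ± 0.06, adjusted p = 8.56e-09). PCO1 (AT5G15120) and PCO2 (AT5G39890), oxidases that mark such factors for degradation, rose by 0.72 ± 0.09 and 1.01 ± 0.18.

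Auxin and gibberellin genes changed in both directions. Of 25 Aux/IAA repressors of auxin signalling 5 fell (3 with limma on TPM) and 2 rose (1 without col0 low replicate 1). IAA3 (AT1G04240) stood at 6.16, 8.09 and 7.73 CPM in high humidity, against 15.2, 15.5 and 17.1 CPM in low humidity (log2 fold change -1.12 ± 0.13, adjusted p = 7.14e-06). GH3.5 (AT4G27260), an enzyme that conjugates auxin to amino acids, stood at 84.4, 94.5 and 91.7 CPM in high humidity, against 43.9, 36.8 and 41.8 CPM in low humidity (log2 fold change 1.14 ± 0.08, adjusted p = 2.43e-08). SAUR12 (AT2G21220), of the small auxin-up RNA family, stood at 8.87, 8.73 and 9.29 CPM in high humidity, against 24.4, 44.3 and 33.7 CPM in low humidity (log2 fold change -1.93 ± 0.25, adjusted p = 0.000377). IAA3 and SAUR12 were low and GH3.5 high in each high-humidity library. None of the 8 tested PIN auxin carriers was called by the quasi-likelihood test of edgeR, where 2 had an unadjusted p below 0.05, and DESeq2 called 0; the smallest adjusted p among them was 0.0526 in edgeR. A replicate block called 2 of them lower, PIN4 and PIN5, and each was also called lower in a fit without 1 library, PIN4 without col0 high replicate 2 and PIN5 without col0 low replicate 2. Of 23 tested gibberellin genes 4 rose and 5 fell, while 14.3% of all tested genes rose and 15.9% fell. Leaving out 1 library gave 2 to 4 rises and 3 to 5 falls, and a replicate block gave 8 falls. RGL1 (AT1G66350), a DELLA repressor of gibberellin signalling, fell (-0.61 ± 0.08), and the gibberellin receptor GID1C (AT5G27320) rose (0.72 ± 0.12). TCP18 (AT3G18550), known as BRANCHED1 and a brake on bud outgrowth, stood at 4.12, 4.61 and 4.80 CPM in high humidity, against 1.27, 1.60 and 2.55 CPM in low humidity (log2 fold change 1.32 ± 0.30, adjusted p = 0.00369).

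Transport genes for water and minerals changed one by one. Plasma membrane aquaporins (PIPs) gave 4 rises and 3 falls of 13, while 14.3% of all tested genes rose and 15.9% fell. PIP2;1 (AT3G53420) stood at 813, 791 and 746 CPM in high humidity, against 453, 492 and 470.0 CPM in low humidity (log2 fold change 0.73 ± 0.08, adjusted p = 4e-06), and PIP2;5 stood at 50.8, 49.4 and 52.1 CPM in high humidity, against 70.4, 71.7 and 70.05 CPM in low humidity (log2 fold change -0.48 ± 0.09, adjusted p = 0.000836). Neither gene's groups overlapped. NIP5;1 (AT4G10380), a boric acid channel, stood at 59.5, 73.1 and 70.3 CPM in high humidity, against 27.4, 24.04 and 20.1 CPM in low humidity (log2 fold change 1.50 ± 0.17, adjusted p = 9.88e-05), and NIP6;1 (AT1G80760), which moves boron in the shoot, rose by 0.56 ± 0.12. The NIP5;1 libraries in high humidity were well above those in low humidity. Ferritins, the iron stores of plastids, fell. FER1 (AT5G01600) stood at 612, 528 and 456 CPM in high humidity, against 728, 893 and 787 CPM in low humidity (log2 fold change -0.59 ± 0.12, adjusted p = 0.00209), and FER3 (AT3G56090) and FER4 (AT2G40300) changed by -0.96 ± 0.09 and -0.63 ± 0.06. FRO3 (AT1G23020), a ferric reductase of mitochondria, stood at 39.3, 46.3 and 43.2 CPM in high humidity, against 15.6, 19.1 and 14.1 CPM in low humidity (log2 fold change 1.40 ± 0.14, adjusted p = 7.17e-06). LBD37 (AT5G67420), a repressor of nitrate genes, rose by 0.58 ± 0.12, and APR2 (AT1G62180) of sulfate reduction by 0.37 ± 0.08.

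Few regulators of the meristem and of flowers were called. Of 27 tested stem cell and meristem regulators 4 rose and 1 fell, against 30.2% of all genes called in either direction; 4 fell with a replicate block, 2 without col0 high replicate 1 and 3 without col0 low replicate 2. CLV1 (AT1G75820), the receptor kinase that restrains stem cell number, stood at 53.7, 50.99 and 58.7 CPM in high humidity, against 38.1, 37.1 and 36.2 CPM in low humidity (log2 fold change 0.55 ± 0.06, adjusted p = 8.34e-06). CNA (AT1G52150), an HD-ZIP III factor, stood at 86.9, 84.6 and 91.1 CPM in high humidity, against 72.7, 64.8 and 74.5 CPM in low humidity (log2 fold change 0.31 ± 0.06, adjusted p = 0.00128). BAM2 (AT3G49670), a receptor related to CLV1, stood at 78.5, 77.04 and 84.6 CPM in high humidity, against 103, 92.1 and 98.6 CPM in low humidity (log2 fold change -0.29 ± 0.06, adjusted p = 0.00216). The libraries did not overlap for CLV1, CNA or BAM2. Of 20 floral identity and transition genes 2 fell (1 without any one of the high-humidity libraries). SPL9 (AT2G42200), which promotes the adult and floral phase, changed by -0.36 ± 0.06. The other, SEP2 (-0.19 ± 0.06), lost its call without any of the high-humidity libraries or without col0 low replicate 2, with an adjusted p of up to 0.13. Outside that list, FT (AT1G65480), the mobile flowering signal normally made in leaves, stood at 1.72, 1.14 and 0.966 CPM in high humidity, against 5.23, 3.83 and 3.30 CPM in low humidity (log2 fold change -1.71 ± 0.27, adjusted p = 0.000173). SPL5 (AT3G15270), of the same family as SPL9, stood at 26.04, 28.1 and 28.7 CPM in high humidity, against 45.7, 53.4 and 44.7 CPM in low humidity (log2 fold change -0.79 ± 0.09, adjusted p = 6.82e-06).

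Among called genes, the following stood in the 10 largest gains or losses in mean CPM, a scale that is not per length. TCTP (AT3G16640), a growth-related protein, stood at 2133, 2093 and 2141 CPM in high humidity, against 1049.9, 1092 and 1109 CPM in low humidity (log2 fold change 0.97 ± 0.07, adjusted p = 6.21e-08). CP5 (AT1G64720), of the START lipid-transfer superfamily, stood at 914, 932 and 959.7 CPM in high humidity, against 259, 277 and 289.8 CPM in low humidity (log2 fold change 1.77 ± 0.08, adjusted p = 2.87e-10). RCA (AT2G39730), which activates Rubisco, stood at 3144, 3046 and 3134 CPM in high humidity, against 2066, 2335 and 2105 CPM in low humidity (log2 fold change 0.52 ± 0.09, adjusted p = 0.000563). On the other side, VSP1 (AT5G24780), a vegetative storage protein induced by jasmonate, stood at 3246, 2657 and 2640.2 CPM in high humidity, against 3915, 3875 and 3947 CPM in low humidity (log2 fold change -0.46 ± 0.09, adjusted p = 0.00157). ATMS1 (AT5G17920), a methionine synthase, stood at 1261, 1164 and 1158 CPM in high humidity, against 1743, 1659 and 1631 CPM in low humidity (log2 fold change -0.49 ± 0.07, adjusted p = 6.89e-05). Each of these genes kept its groups apart. Among the 25 lowest fold changes of genes with a symbol was XPL1 (AT3G18000), which methylates phosphoethanolamine on the way to choline. It stood at 116, 104 and 119.7 CPM in high humidity, against 371, 342 and 389 CPM in low humidity (log2 fold change -1.70 ± 0.11, adjusted p = 2.4e-07). OEP16-1 (AT2G28900) and OEP6 (AT3G63160), of the outer plastid envelope, fell by 1.63 ± 0.09 and 1.98 ± 0.15 on the log2 scale.

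The same humidities were compared in the pip2 mutant, which shares no library with the col0 comparison. In pip2 5294 genes were called (24.2%). Of the col0 calls, 3872 were called in the same direction in pip2, which is 58.5% of the col0 calls and 73.1% of the pip2 calls, and 29 were called in opposite directions. The test of the difference between the responses called 97 genes (0.443%), or 197 with a replicate block. The change was more positive in pip2 for 78 of them (0.356%) and more negative for 19 (0.0868%). Of the 97, 72 were also called in col0. Several genes of the cell wall and surface were among them. EXO (AT4G08950), a growth-promoting gene of the EXORDIUM family, changed by 0.87 ± 0.08 in pip2 and by -0.47 ± 0.08 in col0, a difference of 1.34 ± 0.11 (adjusted p = 1.06e-05). XTH16 (AT3G23730) changed by 0.73 ± 0.06 in pip2 and by -0.43 ± 0.06 in col0 (difference 1.15 ± 0.09, adjusted p = 4.89e-06). AGP7 (AT5G65390) changed by 0.55 ± 0.10 in pip2 and by -0.63 ± 0.10 in col0 (difference 1.18 ± 0.14, adjusted p = 0.000762). In all 3 the sign in pip2 was opposite to that in col0. ERD5 rose further in pip2, by 1.73 ± 0.13, than in col0 (difference 1.16 ± 0.18, adjusted p = 0.0195). THI2.2 rose less in pip2, by 1.69 ± 0.15 (difference -1.55 ± 0.23, adjusted p = 0.00437), and JAZ5 (AT1G17380), a jasmonate-induced repressor, fell further, by 1.49 ± 0.12 against 0.68 ± 0.12 in col0 (difference -0.81 ± 0.17, adjusted p = 0.0408). The JAZ5 difference lost its call in the fit without robust shrinkage (adjusted p = 0.0744) and with limma on TPM (adjusted p = 0.0982). The ABA receptors, heat shock chaperones and morning clock genes named above had no called difference.

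**Figure D5:**
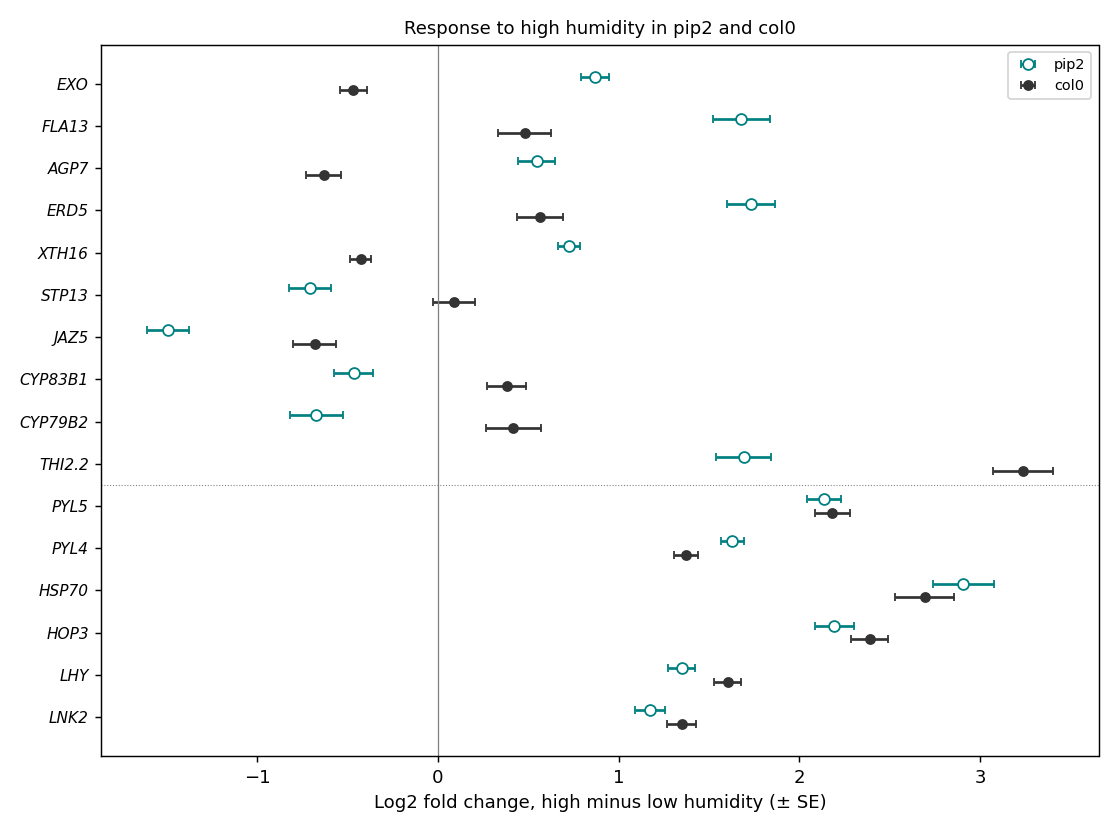
Log2 fold change, high minus low humidity, with its standard error, in pip2 (open) above col0 (filled). Shown are the 10 genes with the highest and lowest called differences between the responses, among genes with a symbol. Below them are 6 genes of the ABA, heat shock and clock lists that had no called difference. EXO, XTH16 and AGP7 are above 0 in pip2 and below 0 in col0, while the last 6 genes lie close together.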

How the data were processed

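RNA-seq counts per gene and TPM were analysed as deposited by the authors. Per the submitters' processing notes, Trimmomatic 0.39, HISAT2 2.2.1 and featureCounts 2.0.6 were used with TAIR10; the read layout, strand setting and count filter are not given in the sources used here. The 12 libraries held 17850187 to 28445060 counts in total.

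Genes passing filterByExpr (minimum count 10, minimum total 15) were scaled by TMM and tested with edgeR 4.0.16 (quasi-likelihood, robust shrinkage, 1 mean per group, all 12 libraries, R 4.3.3), two-sided, with Benjamini-Hochberg adjustment over all tested genes at 0.05. Standard errors are the log2 fold change divided by the square root of F. Alternatives used DESeq2 1.42.0 and limma 3.58.1 on log2(TPM + 1); 2537 genes have no TPM and were not in that fit. The biological coefficient of variation was 10.3%. In simulated data for the col0 comparison (21715 genes, 200 changed), 37.3% of genes with a log2 change of 0.5 were recovered, 86.6% at 1 and 100% at 2, and 5.10% of 157 calls were false. The changed genes were picked outside the lowest expression levels, and counts were drawn with no replicate effect. In the data 30.2% of tested genes were called, which sets another p-value cut-off. The simulated shares therefore do not carry over to the col0 calls.

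Replicates of a group differed by more than sampling noise (chi-square per degree of freedom 4.92 to 11.8). Same-numbered high and low libraries deviated together (r = 0.28, 0.26 and 0.45 across genes), so the numbers were taken to pair the samples, from the data and not the labels; the main fit has no block, and a replicate block is an alternative.

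Symbols came from the RefSeq TAIR10.1 gene table, which matched 25326 of 25424 gene IDs. Members, lists and tests were chosen with earlier results of these data known, and robust shrinkage and the 6 groups defined by annotated product (core histones, ribosomal proteins, kinesins, disease resistance proteins, lectins, tubulins) after values were seen. Named genes are called members of these lists and families, up to 6 in each by size of change. Others are members named for their role in a pathway and the largest gains and losses in CPM. Further genes were taken only among those with a symbol. They had the smallest adjusted p, the 5 highest and 5 lowest differences between genotypes, or the highest and lowest fold changes. The genes with the highest and lowest fold changes were also required to have no overlap between the groups. Promoter motifs were not analysed here.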

Additional observations from a re-analysis of the deposited data

Results flagged for a closer look

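The response to humidity differed between pip2 and col0 for 97 genes by a test of the difference itself, the interaction of genotype and humidity in edgeR. The differences are given as pip2 minus col0 on the log2 scale. Among genes described in the report they were positive for EXO (1.34), AGP7 (1.18), ERD5 (1.16), XTH16 (1.15), XTH15 (0.998), XTH9 (0.68), SPL5 (0.62), AGP15 (0.50) and TUA5 (0.44). They were negative for JAZ5 (-0.81) and THI2.2 (-1.55). XTH15 rose by 1.87 in pip2 and by 0.87 in col0. AGP15 and TUA5 changed by -0.30 and -0.20 in pip2, and by -0.80 and -0.64 in col0. Groups of 3 libraries are too small for the test for a single deviating sample.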

How the results depend on the processing

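The number of genes called between humidities in col0 stayed between 6222 and 7577 under another scaling, filter, tool, set of libraries or shrinkage and with a replicate block, where 7577 were called. It ranged from 4766 to 5829 when 1 library was left out, with the fewest without col0 high replicate 2. The count in pip2 stayed between 5147 and 6341 (6341 with a replicate block). The 97 genes whose response differed between pip2 and col0 became 197 with a replicate block, 184 with DESeq2 and 42 with limma on log2(TPM + 1), and the cause was not tested. Fits that leave out 1 library were not run for that difference, and promoter motifs were not run.

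Of 151 genes given with their own values in the report, 147 kept their direction and their side of the threshold in all alternatives in which they could be fitted. Most of these genes were chosen by size of change or small adjusted p, which favours steady calls. Over all 6614 calls in col0, 3864 were kept in all such alternatives. SEP2, CESA7, ABI2 and GRP19 lost their call without single libraries, GRP19 also with a replicate block. With limma on log2(TPM + 1), which understates the change of low genes, LTI30 changed by -2.97, FT by -1.003, PR4 by 1.62 and HSP17.6A by 2.38. Of 11 of these genes with a called difference between genotypes, 6 kept it in all alternatives. Limma ended the call for JAZ5, SPL5, XTH9, AGP15 and TUA5, and the other scalings ended it for SPL5. The fit without robust shrinkage ended it for JAZ5 and SPL5. That fit was an alternative not planned in advance, and robust shrinkage in the main fit was itself chosen after values were seen. A replicate block gave 2 falls in place of 1 among heat shock factors and among WRKY factors, 4 in place of 2 among sugar transporters, and 1 rise in place of 0 among evening clock genes, floral genes, arabinogalactan proteins and kinesins. Beside these and the counts given in the report, it moved the count of no list counted there by over 1.5 times. Small changes are limited by depth and spread: the median standard error was 0.485 on the log2 scale below 1 CPM, against 0.0665 at 100 CPM and over.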
